A study of Rattus norvegicus with 24 samples.

Results

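Collagens are the triple-helical proteins of the extracellular matrix. Every gene annotated as protein coding whose symbol has the form Col, a number, a and a number was taken, which gave 43 of the 32545 genes measured, with 42 symbols because Col23a1 is listed under 2 gene identifiers. They fall into 11 fibrillar genes, 5 genes of the basement membrane type IV, 5 of the beaded filament type VI, 9 of the fibril-associated collagens (FACIT), 5 transmembrane rows, 2 multiplexins, 3 short network genes and 3 others. Col6a3 is annotated as a processed transcript in the table and therefore lies outside this definition, while Col4a3 and Col21a1 were not analysed here.

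Fibrillar collagens such as types I and III are made mainly by fibroblasts, which in the brain sit in the meninges and around larger vessels, whereas brain parenchyma holds little fibrillar collagen. Type IV collagen forms the sheet of every basement membrane, including that of brain capillaries, and type VI forms fine filaments next to it. Several other members, such as the transmembrane Col25a1 and the fibril-associated Col19a1, are known to be made by neurons.

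RNA-seq was performed on the nucleus accumbens (NAc), core and shell, of male Sprague Dawley rats, 8 weeks old on arrival, with 6 groups of 4 libraries, each from a separate rat. In the injection experiment rats received 5 intraperitoneal injections of saline or of the bacterial immune stimulant lipopolysaccharide (LPS, 250 µg/kg) over about 2 weeks, followed by 5 daily intraperitoneal injections of saline or of heroin rising from 1 to 5 mg/kg, which gave LPS-Heroin, LPS-Saline, Saline-Heroin and the control group Saline-Saline. The gap between the series is 1 week in the labels and 4 days in the methods of the study. The time of tissue collection is taken here as about 1 h after the last injection. Per the methods of the study, every injected rat was placed in a locomotor activity chamber between the last injection and death. Death followed within 1 h of the end of that test, so the time after injection could exceed 1 h. In the self-administration (SA) experiment, rats with a jugular catheter took saline (Saline-SA) or heroin at 0.075 mg/kg per infusion (Heroin-SA) in 6 h sessions on 10 days and were killed right after the last session. SA rats were housed singly on a reverse light cycle, injected rats in pairs on a normal cycle. Catheter, sessions, locomotor test, housing, light cycle, time of sampling and the saline itself therefore cannot be told apart when the experiments are compared. All rats were of the same strain, and whole tissue was sequenced.

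The values are FPKM, fragments scaled to gene length and library size, on 12312878 to 18850240 recovered reads per library. The library size behind the values was not the reads on genes. It ran from 0.940 times these reads in Saline-SA replicate 3 to 1.05 times in Saline-Saline replicate 1, and the reason was not tested. Ppp1r1b, a defining gene of striatal medium spiny neurons, averaged 831 FPKM, and all 9 markers of these neurons were present. Markers of meningeal fibroblasts, of choroid plexus and of cortical excitatory neurons differed between libraries. Slc17a7, a marker of cortical excitatory neurons, averaged 230 FPKM. It ran from 36.6 FPKM in Heroin-SA replicate 4 to 374 FPKM in LPS-Heroin replicate 1. The summed level of 14 meningeal fibroblast markers ran from 30.4 to 290 FPKM in LPS-Saline libraries and from 37.9 to 69.0 in Heroin-SA libraries, and Ttr, the leading choroid plexus gene, stood at 318, 0.188, 0.00 and 5.35 FPKM in Saline-Saline replicates 1 to 4. In such bulk tissue, fewer cells of a type and less RNA per cell cannot be told apart.

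RefSeq holds a 250-base stretch upstream of the start for 33 of the 42 symbols (GRCr8 assembly), and 3 stretches are shown because of what the values below show. Col1a2 and Col8a2 had some of the widest spreads between libraries of a group, and Col4a2 and Col4a1 are the pair of type IV genes read in opposite directions from a shared stretch of 76 bases in GRCr8. The rn6 gene models that were counted lie 83600 bases apart, so the stretch shown does not abut both of them. Letters run 5′ to 3′, with 3 motifs in capitals in either orientation, namely the TATA box (letters TATAAA), the CCAAT box and the GC box (letters GGGCGG).
Col1a2, chr4:33518307-33518556, plus strand: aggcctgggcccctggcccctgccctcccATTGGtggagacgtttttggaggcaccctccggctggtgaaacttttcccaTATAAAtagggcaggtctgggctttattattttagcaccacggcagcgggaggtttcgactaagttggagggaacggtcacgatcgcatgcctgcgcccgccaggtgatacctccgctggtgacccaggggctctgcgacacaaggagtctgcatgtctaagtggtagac
Col8a2, chr5:143870519-143870768, plus strand: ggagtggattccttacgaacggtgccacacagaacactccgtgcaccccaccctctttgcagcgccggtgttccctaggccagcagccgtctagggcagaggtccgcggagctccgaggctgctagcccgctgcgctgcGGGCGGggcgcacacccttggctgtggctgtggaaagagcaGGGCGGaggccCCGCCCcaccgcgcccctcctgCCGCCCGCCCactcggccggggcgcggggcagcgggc
Between the Col4a2 and Col4a1 starts, chr16:84885521-84885596, plus strand, read towards Col4a1: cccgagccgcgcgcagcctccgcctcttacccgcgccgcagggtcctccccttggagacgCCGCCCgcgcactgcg
The Col1a2 stretch holds 1 TATAAA and 1 CCAAT in reverse orientation, and no GGGCGG. They begin 170 and 221 bases before the annotated start, and whether that start is the one used in this tissue was not tested. The Col8a2 stretch holds 5 GGGCGG, of which 2 in reverse orientation overlap each other, and neither of the other motifs. Over the 33 collagen genes with a stretch, TATAAA was present in 4 (12.1%), against 13.1% of 27457 rat genes with a stretch of the same length. CCAAT was present in 11 (33.3%, against 34.3%) and GGGCGG in 18 (54.5%, against 32.4%). The stretches of Col4a1 and Col4a2 share the 76 bases shown above, so the GGGCGG there counts for both genes. A match of letters describes the sequence and is no evidence of a factor bound there.

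Levels of the 43 collagen rows spanned from 0.0634 FPKM for Col10a1, the collagen of hypertrophic cartilage, to 42.5 FPKM for Col11a2, as means of 24 libraries. Of the 43 rows, 32 averaged at least 0.5 FPKM and 11 did not. The 11 fibrillar genes all averaged at least 0.5 FPKM, as did 8 of 9 FACIT genes and 4 of 5 type IV genes, against 2 of 5 type VI genes. The plot of levels by class shows that genes with similar means differed widely in their range over libraries.

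**Figure D1:**
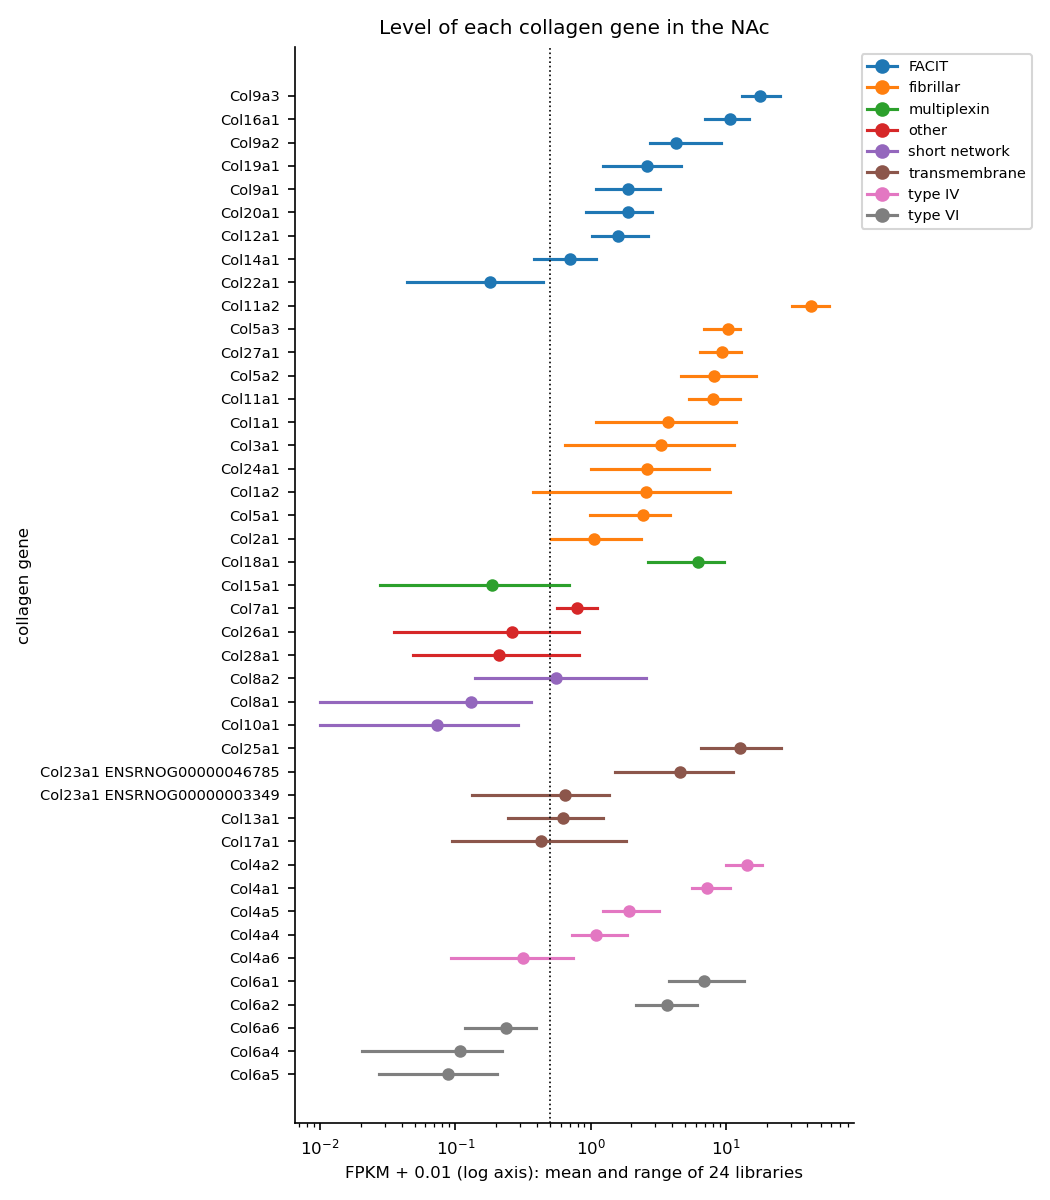
Mean (point) and range (line) of FPKM + 0.01 over the 24 libraries on a log axis for each of the 43 collagen rows, coloured by class, with a dotted line at 0.5 FPKM. Col11a2 lies highest at a mean of 42.5 FPKM, and Col1a1, Col1a2 and Col3a1 have wide lines at means of 3.73, 2.55 and 3.28 FPKM.

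Col11a2, which encodes a chain of the minor fibrillar type XI (chromosome 20, 3830164 to 3859018, plus strand, rn6), was the most abundant collagen, and its widest spread between libraries of a group was 1.37-fold on FPKM + 0.1. Its level was 37.3 ± 3.83 FPKM in Saline-Saline and 38.8 ± 4.59 FPKM in LPS-Heroin (mean ± SD, n = 4 in each group, here and below). The other most abundant fibrillar genes, Col5a3 (10.4 FPKM) and Col27a1 (9.37 FPKM), also lay close together, with ranges of 6.91 to 12.7 and 6.41 to 12.8 FPKM over all libraries. The partner chain Col11a1 averaged 7.96 FPKM. Col2a1, the main collagen of cartilage, averaged 1.04 FPKM.

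The chains of types I and III behaved otherwise. Col1a1 (chromosome 10, 82745801 to 82762789, plus strand, rn6) read 2.01, 1.39, 2.63 and 8.93 FPKM in Saline-Saline replicates 1 to 4. It read 1.08, 1.45, 1.30 and 11.8 FPKM in LPS-Saline and 3.85, 7.28, 7.77 and 9.30 FPKM in Saline-Heroin. It read 2.80, 1.80, 1.52 and 7.90 FPKM in LPS-Heroin. In each of these groups except Saline-Heroin, a single library, labelled replicate 4, stood well above its fellows. In the SA groups it read 1.46, 1.72, 1.38 and 4.46 FPKM in Saline-SA, again with replicate 4 on top, and 2.13, 1.41, 1.98 and 2.04 FPKM in Heroin-SA, where the 4 libraries lay close together.

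Col1a2, the second chain of type I, showed the widest range, 29.6-fold between the lowest and highest FPKM within LPS-Saline, where it read 0.364, 0.417, 0.639 and 10.8 FPKM. In Saline-Saline it read 1.11, 0.369, 2.73 and 8.02 FPKM. Col3a1, the chain of type III that accompanies type I in vessels and meninges, ranged 18.0-fold within LPS-Saline, with 0.641, 0.986, 0.665 and 11.5 FPKM. The same replicate was therefore the highest for each of these chains. Over all 6 groups the library labelled replicate 4 was the highest in 5 groups for Col1a1 and Col1a2 and in 4 groups for Col3a1. The plot of these chains library by library shows the separate libraries on a log axis.

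**Figure D2:**
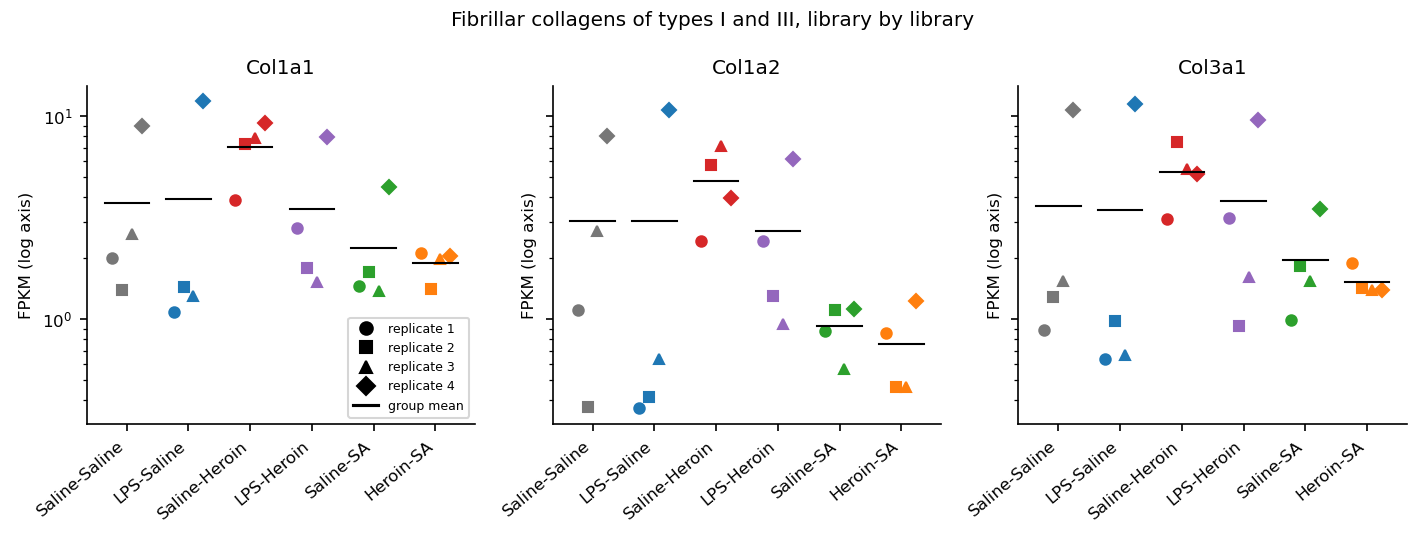
FPKM (log axis) of Col1a1, Col1a2 and Col3a1 in every library, by group, with a marker shape for each replicate number and a line at the group mean (n = 4). LPS-Saline replicate 4, at 11.8, 10.8 and 11.5 FPKM, lies far above the other 3 LPS-Saline libraries, while the Heroin-SA libraries lie close together.

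The deviation of each library from its group mean was taken, to see which collagens varied with cell type markers. It was compared with that of the mean log2 level of 12 marker lists over 24 libraries. Whether the fibroblast markers came from meninges or from fibroblasts around vessels was not tested. All 14 meningeal markers were in the table and 13 averaged at least 0.5 FPKM, led by Igfbp2 at 26.2 FPKM, and 3 of them (Dcn, Lum and Ogn) also stand in the list of fibril partners below. Over 384 relations of 32 collagens with 12 lists, 6 collagens followed the meningeal list at an adjusted permutation p below 0.05. Col1a1 gave Pearson r = 0.91 (permutation p = 9e-05, adjusted p = 0.0069) and Spearman rho = 0.86 (permutation p = 4e-05). Col3a1 gave r = 0.91 (permutation p = 4e-05, adjusted p = 0.0051) and rho = 0.85 (permutation p = 4e-05). Col1a2 gave r = 0.91 (permutation p = 2e-05, adjusted p = 0.0038) and rho = 0.90 (permutation p = 2e-05).

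The 3 others were Col6a2, Col8a2 and Col18a1. Col6a2, a chain of type VI, gave r = 0.88 (adjusted permutation p = 0.0083, rho = 0.79). Col8a2, a chain of the short network type VIII of endothelial and corneal membranes, gave r = 0.84 (adjusted permutation p = 0.026, rho = 0.85). Col18a1, the multiplexin whose C-terminal part is endostatin, gave r = 0.61 (adjusted permutation p = 0.021, rho = 0.63). Without LPS-Saline replicate 4 and Saline-Saline replicate 4, the libraries farthest from the median, r was 0.83 for Col1a1, 0.83 for Col3a1, 0.82 for Col1a2, 0.80 for Col6a2, 0.83 for Col8a2 and 0.59 for Col18a1. Col6a1, the partner chain of Col6a2, gave r = 0.24 with the same list (adjusted permutation p = 0.64, rho = 0.12) and −0.16 without these libraries. LPS-Saline replicate 4 lay apart from the next library by 0.354 of the whole range of the list, and the other libraries formed a continuous series.

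**Figure D3:**
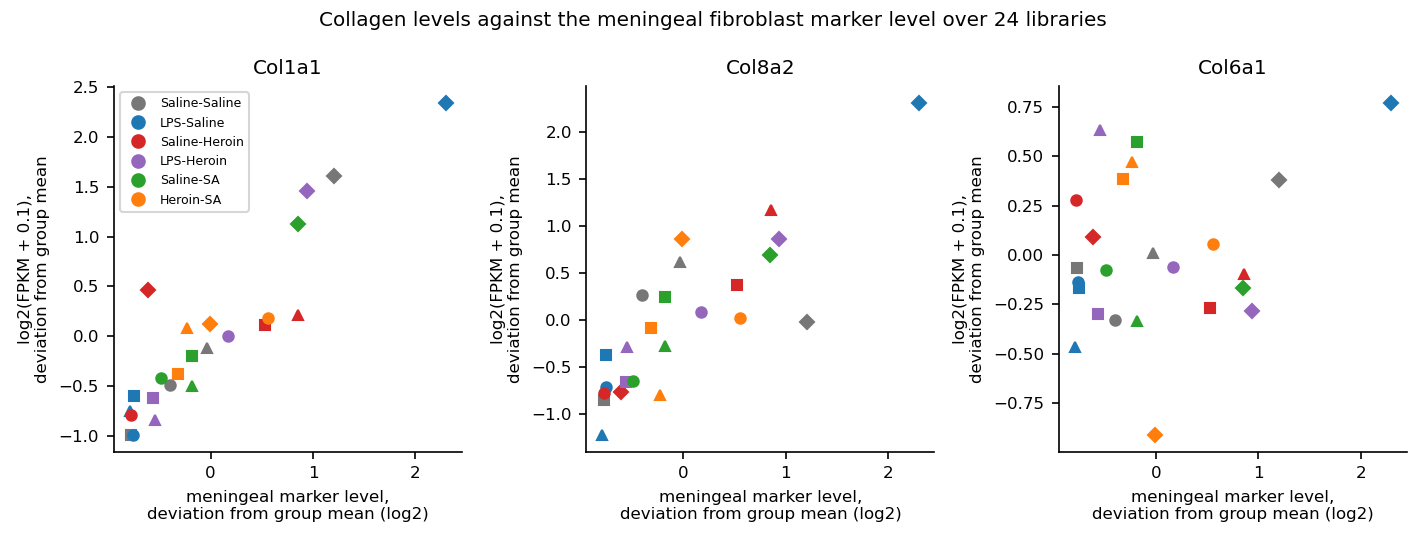
Deviation of log2(FPKM + 0.1) from the group mean for Col1a1, Col8a2 and Col6a1 against the deviation of the mean log2 level of the meningeal fibroblast markers, 1 point per library, coloured by group, with replicate number 1 to 4 as circle, square, triangle and diamond. Col1a1 (r = 0.91) and Col8a2 (r = 0.84) rise with the marker level, and Col6a1 (r = 0.24) does not follow a line.

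Other lists singled out other collagens. Col9a3, a chain of the FACIT type IX, followed the oligodendrocyte list (r = 0.80, adjusted permutation p = 0.0069, rho = 0.81). Col4a5, a type IV chain, followed the choroid plexus list (r = 0.84, adjusted permutation p = 0.0038, rho = 0.81), and r was 0.79 without Saline-Saline replicate 1 and LPS-Heroin replicate 4. That list rests on 4 of its 9 genes in the table (Ttr, Aqp1, Kcne2 and Kl), the others averaging under 0.5 FPKM. In LPS-Saline replicate 4, the library with the highest Col4a5 (3.18 FPKM), Aqp1 stood at 6.94 FPKM but Ttr at 0.311, Folr1 at 0.0699, and Kcne2 and Kl at 0.508 and 0.284 FPKM. Col4a5 gave r = 0.68 with the meningeal list (adjusted permutation p = 0.073), whose level was highest in that library. Col4a1 followed the mural cell list (r = 0.66, adjusted permutation p = 0.044, rho = 0.65), and its r with the endothelial list was 0.11. The shorter Col23a1 row followed the list of cortical excitatory neurons (r = 0.70, adjusted permutation p = 0.044, rho = 0.68). Col24a1 (r = −0.68, adjusted permutation p = 0.023), Col5a1 (r = −0.67, adjusted permutation p = 0.044) and the longer Col23a1 row (r = −0.62, adjusted permutation p = 0.044) ran against the list of striatal medium spiny neurons. By Spearman's rho, the relations of Col4a1, Col5a1 and both Col23a1 rows missed an adjusted p of 0.05.

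Among the collagens themselves, described without a test because the deviations share the same 24 libraries, the closest pairs were Col1a1 with Col3a1 (r = 0.95), Col1a1 with Col1a2 (r = 0.92), Col3a1 with Col1a2 (r = 0.87) and Col5a2 with Col24a1 (r = 0.84). Neighbours on a chromosome were not the closest. Col4a2 with Col4a1 gave r = 0.49, Col3a1 with its tail-to-tail neighbour Col5a2 gave r = 0.18 and Col6a1 with Col6a2 gave r = 0.05. The FACIT chains Col9a3 and Col16a1 gave r = 0.80, whereas Col9a3 and Col9a2, chains of the same protein, gave r = 0.16.

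The basement membrane chains Col4a2 (chromosome 16, 83387364 to 83438561, minus strand, rn6) and Col4a1 (chromosome 16, 83522162 to 83632153, plus strand, rn6), which combine in a fixed ratio in the common type IV trimer, averaged 14.3 and 7.22 FPKM. Col4a2 ranged over 10.0 to 18.3 FPKM and Col4a1 over 5.57 to 10.8 FPKM. Col4a5 averaged 1.91 FPKM and Col4a4 1.08 FPKM. In type VI, Col6a1 (6.84 FPKM) and Col6a2 (3.68 FPKM) led, and Col6a6 averaged 0.228 FPKM. Their usual partner Col6a3 averaged 0.558 FPKM and stood at 1.86, 0.216, 0.360 and 0.974 FPKM in Saline-Saline.

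Among FACIT genes, Col9a3 (17.9 FPKM), Col16a1 (10.6 FPKM) and Col9a2 (4.26 FPKM) were the most abundant. Col25a1, the neuronal transmembrane collagen, averaged 12.8 FPKM, and Col18a1 6.24 FPKM. The 2 Col23a1 rows averaged 4.56 FPKM (ENSRNOG00000046785, the shorter row) and 0.639 FPKM (ENSRNOG00000003349, the longer row). Because they share a symbol, how reads were divided between them is uncertain. Col7a1, the anchoring fibril collagen, averaged 0.783 FPKM. Col10a1, which overlaps the more abundant Nt5dc1 on the opposite strand, is uncertain because use of the strand in counting was not stated.

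The groups were then compared with limma on log2(FPKM + 0.1). A collagen was called upregulated or downregulated at an unadjusted p of at most 0.05 and a change of at least 1.30-fold, the limits the study used for its pattern analyses. No collagen reached an adjusted p below 0.05 in the injection experiment or between SA groups, and neither did any other gene tested at a mean of at least 0.5 FPKM. Other settings gave some genes below 0.05, none of them a collagen. With no filter on low values there were 7 in LPS-Saline vs Saline-Saline, 5 in Saline-Heroin vs Saline-Saline, 1 in LPS-Heroin vs Saline-Heroin and 2 in the interaction, with all libraries in a single fit 78 in Heroin-SA vs Saline-SA, and with a library left out, a pseudocount of 1 or a marker level as a covariate at most 3. Comparisons with Saline-Saline share its 4 libraries, and so do those with the other groups used more than once.

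After LPS alone (LPS-Saline vs Saline-Saline), 1 of 32 collagens tested was upregulated and none downregulated, against 2.37% of all 15119 genes called and 1.21% called higher. Col5a2, the second chain of the type V fibril core, read 7.07, 4.62, 6.16 and 8.61 FPKM in Saline-Saline and 10.0, 8.25, 9.40 and 8.40 FPKM in LPS-Saline. Every LPS-Saline library lay above 3 of the 4 Saline-Saline libraries, and Saline-Saline replicate 4 overlapped them. The difference was upward (log2 fold change 0.47, SE 0.175, 95% interval 0.08 to 0.87, limma adjusted p = 0.729, exact permutation p = 0.0857). The exact permutation tests are 2-sided on mean FPKM, and 0.0286 is the smallest p that 4 against 4 libraries can give. The call was lost without LPS-Saline replicate 1 or 3 or Saline-Saline replicate 2 or 3, with log2 fold changes of 0.31 to 0.61 over the 8 libraries left out in turn. The median over the 32 collagens was 0.01 on the log2 scale, as it was over all genes tested. In the other comparisons the collagen median lay between -0.06, for the interaction, and 0.04, for Saline-Heroin vs Saline-Saline, where the medians over all genes were -0.00 and 0.00.

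After heroin alone (Saline-Heroin vs Saline-Saline), 3 of 32 collagens were upregulated, against 3.07% of 15143 genes called in either direction and 1.40% called higher. These were Col1a1, Col5a1 and Col6a1. Col1a1, whose values are given above, averaged 7.05 ± 2.30 FPKM in Saline-Heroin against 3.74 ± 3.49 FPKM (log2 fold change 1.20, SE 0.521, 95% interval 0.02 to 2.38, limma adjusted p = 0.750, exact permutation p = 0.143). Saline-Saline replicate 4 lay above 3 of the 4 Saline-Heroin libraries. The meningeal markers summed to 124 ± 63.7 FPKM in Saline-Heroin and 70.8 ± 49.8 FPKM in Saline-Saline, and with their level as a covariate the Col1a1 difference was 0.45 and was not called. The call was lost without any of 6 of the 8 libraries, all but Saline-Heroin replicate 1 and Saline-Saline replicate 4, with values of 0.87 to 1.73.

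Col5a1, the first chain of type V, read 2.0, 1.58, 1.38 and 2.91 FPKM in Saline-Saline and 3.63, 2.19, 2.98 and 3.40 FPKM in Saline-Heroin (log2 fold change 0.64, SE 0.254, 95% interval 0.06 to 1.21, limma adjusted p = 0.750, exact permutation p = 0.0571). Col6a1 read 3.81, 4.58, 4.84 and 6.28 FPKM in Saline-Saline and 7.85, 5.34, 6.03 and 6.88 FPKM in Saline-Heroin (log2 fold change 0.42, SE 0.172, 95% interval 0.03 to 0.81, limma adjusted p = 0.750, exact permutation p = 0.0857). For each gene the groups overlapped through Saline-Saline replicate 4. The Col5a1 call was lost without any of 6 libraries, all but Saline-Heroin replicate 2 and Saline-Saline replicate 4 (0.49 to 0.84), and the Col6a1 call without Saline-Heroin replicate 1 or 4 or Saline-Saline replicate 1, 2 or 3 (0.31 to 0.55). Col6a1 was not called with the meningeal level as a covariate (0.39), nor was Col5a1 (0.56). With the cortical level as a covariate Col1a1 (1.26), Col5a1 (0.50) and Col6a1 (0.33) were not called either, and Col20a1 (−0.42) was called lower (2.68% of all genes called). With the libraries labelled replicate 4 left out of both groups, 8 collagens were upregulated (4.86% of all genes called). This alternative, chosen after the data were seen, added Col3a1 (1.97), Col1a2 (2.02), Col6a2 (0.64), Col5a2 (0.72) and the longer Col23a1 row (1.24). That row (ENSRNOG00000003349) rested on 5 to 59 reads per library, and the other Col23a1 row was not called. Leaving out Saline-Saline replicate 4 alone gave 5 (3.72% of all genes called).

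After LPS and heroin (LPS-Heroin vs Saline-Saline), 2 of 31 collagens were upregulated, against 5.43% of 15134 genes called and 2.99% called higher. Col6a1 read 8.36, 7.07, 13.6 and 7.15 FPKM in LPS-Heroin, above every Saline-Saline library. The difference was log2 fold change 0.85, SE 0.226, 95% interval 0.33 to 1.36, limma adjusted p = 0.230, exact permutation p = 0.0286. Groups did not overlap for 1 of the 31 collagens, in the upward direction, against 3.70% of all genes. The call held without each of the 8 libraries in turn (0.63 to 0.97), in all 9 other planned settings, and with the meningeal level as a covariate (0.84). Markers of cortical excitatory neurons moved with the same comparison. They summed to 523 to 781 FPKM in Saline-Saline and 849 to 1098 FPKM in LPS-Heroin, without overlap, and 4 of 5 were called higher. With their level as a covariate, an alternative added after the data were seen, the Col6a1 difference was 0.62 and was not called. No collagen was called (3.30% of all genes, against 5.43% without the covariate). Because this level did not overlap between the groups, the fit cannot tell it apart from the treatment. Over the 24 libraries Col6a1 gave r = 0.64 with this list (adjusted permutation p = 0.079, rho = 0.58), and 0.46 without Heroin-SA replicate 4 and Saline-SA replicate 3.

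Col5a1 read 3.88, 2.66, 2.76 and 2.66 FPKM in LPS-Heroin and was the other gene called (log2 fold change 0.62, SE 0.243, 95% interval 0.07 to 1.17, limma adjusted p = 0.392, exact permutation p = 0.114). Saline-Saline replicate 4 lay above 3 LPS-Heroin libraries, and the call was lost without LPS-Heroin replicate 1 or Saline-Saline replicate 2 or 3 (0.47 to 0.81) and with the cortical level as a covariate (0.35). For Col6a1 the mean in LPS-Saline was 6.39 ± 2.71 FPKM and in Saline-Heroin 6.52 ± 1.09 FPKM, between those of Saline-Saline (4.88 ± 1.03) and LPS-Heroin (9.04 ± 3.08). The LPS by heroin interaction for Col6a1 was 0.10 (95% interval −0.67 to 0.87). No collagen of 32 was called for the interaction by limma, with 0 at an unadjusted p below 0.05 and 0 by limma-voom on recovered reads, against 2.31% of 15113 genes.

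Within LPS-treated rats (LPS-Heroin vs LPS-Saline), none of 32 collagens was called by limma, with 0 at an unadjusted p below 0.05 and 0 by limma-voom, against 2.29% of 15069 genes. Without LPS-Saline replicate 4, the library with the highest meningeal level, Col1a2 (1.97), Col3a1 (1.68) and Col6a1 (0.78) were called upward (2.74% of all genes called). With the meningeal level as a covariate, Col1a2 (0.84) and Col3a1 (0.69) were called upward (2.52% of all genes called). Within heroin-treated rats (LPS-Heroin vs Saline-Heroin), 1 of 32 was downregulated, against 2.20% of 15121 genes called and 0.999% called lower. This was Col1a1 (log2 fold change -1.23, SE 0.487, 95% interval -2.33 to -0.13, limma adjusted p = 1.00, exact permutation p = 0.114), and LPS-Heroin replicate 4 overlapped the Saline-Heroin libraries. With the meningeal level as a covariate the difference was −0.58 and was not called, and with the cortical level it was −0.80 and was not called. Without LPS-Heroin replicate 4, 4 collagens were called, with Col1a1 (−1.71), Col3a1 (−1.53) and Col1a2 (−1.55) lower and Col16a1 (0.38) higher (2.95% of all genes called). The Col1a1 call was lost without any of 6 of the 8 libraries, all but Saline-Heroin replicate 1 and LPS-Heroin replicate 4. The part of meningeal and cortical tissue in these differences was not tested beyond the covariates.

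**Figure D4:**
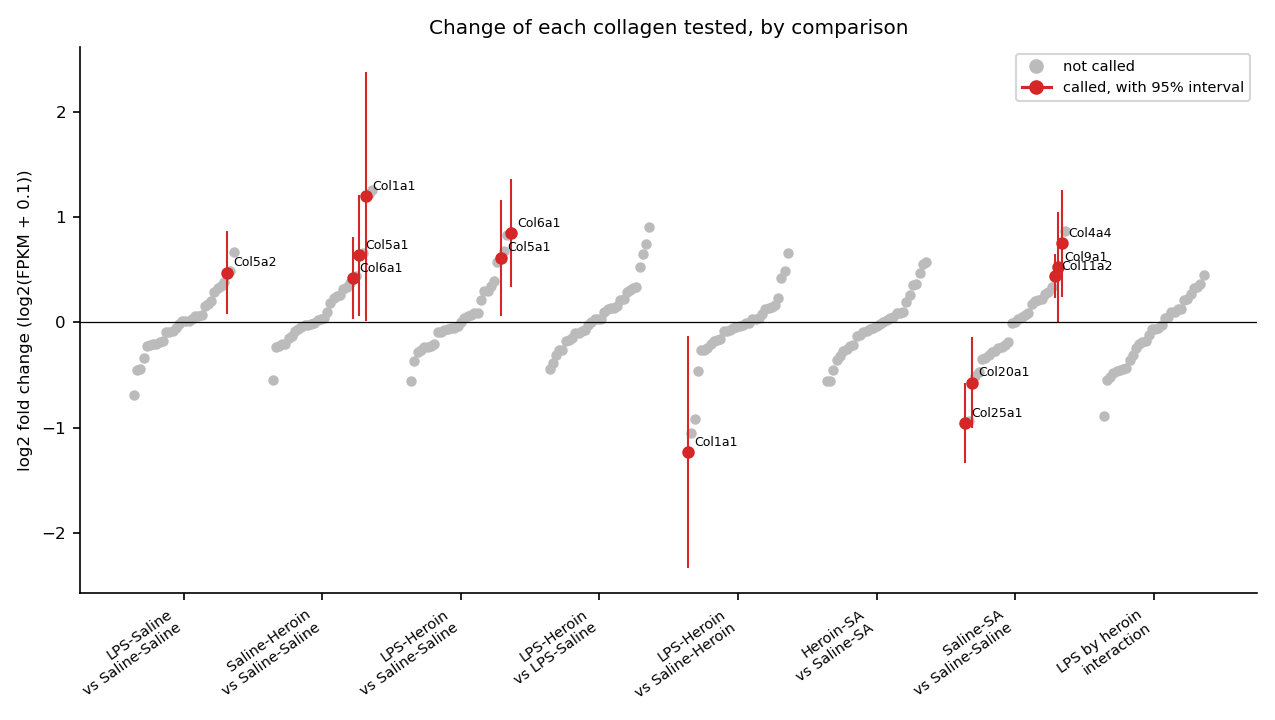
log2 fold change of each collagen tested (grey, ordered by size within a comparison) in the 7 comparisons and the interaction, with called collagens in red with their name and 95% interval. The widest intervals belong to Col1a1, and Saline-SA vs Saline-Saline holds 5 called collagens, 3 higher and 2 lower.

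Between the SA groups (Heroin-SA vs Saline-SA), none of 31 collagens was called by limma, with 0 at an unadjusted p below 0.05 and 2 by limma-voom, against 5.45% of 15024 genes. The nearest was Col12a1, a FACIT of tendon and skin, at 2.08 ± 0.494 against 1.40 ± 0.434 FPKM (log2 fold change 0.56, SE 0.263, 95% interval -0.04 to 1.15, limma adjusted p = 0.460, exact permutation p = 0.114). Col2a1 followed at 0.749 ± 0.0978 against 1.16 ± 0.280 FPKM (log2 fold change -0.55, SE 0.265, 95% interval -1.15 to 0.05, limma adjusted p = 0.465, exact permutation p = 0.0571). These were the genes called by limma-voom, Col12a1 higher and Col2a1 lower, and they are named here after their values were seen. None of the 4 type IV chains tested was called, with intervals of −0.37 to 0.27 for Col4a1, −0.12 to 0.29 for Col4a2, −0.53 to 0.35 for Col4a5 and −0.73 to 0.22 for Col4a4, which read 1.26 ± 0.142 against 1.54 ± 0.267 FPKM. Col1a1 was steady in Heroin-SA at 1.89 ± 0.326 FPKM.

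The control groups of the experiments (Saline-SA vs Saline-Saline) differed in 5 of 31 collagens (3 higher and 2 lower), against 22.8% of 15150 genes called, 8.47% higher and 14.3% lower. For 5 collagens the groups did not overlap, against 28.3% of all genes. Col25a1 was the most strongly lowered. It read 18.3, 11.9, 15.9 and 18.8 FPKM in Saline-Saline and 10.0, 8.11, 6.63 and 8.33 FPKM in Saline-SA (log2 fold change -0.95, SE 0.168, 95% interval -1.33 to -0.57, limma adjusted p = 0.00489, exact permutation p = 0.0286). Col20a1, a FACIT, read 1.89, 2.82, 1.99 and 2.23 FPKM and 1.39, 1.33, 1.77 and 1.36 FPKM in these groups (log2 fold change -0.57, SE 0.191, 95% interval -1.0 to -0.14, limma adjusted p = 0.0594, exact permutation p = 0.0286). Every Saline-SA library lay below every Saline-Saline library for each of these 2 genes.

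Among collagens that rose, Col11a2 read 40.2, 34.4, 33.6 and 40.9 FPKM in Saline-Saline and 45.7, 48.9, 51.7 and 55.7 FPKM in Saline-SA (log2 fold change 0.44, SE 0.0913, 95% interval 0.23 to 0.64, limma adjusted p = 0.0101, exact permutation p = 0.0286). Col4a4, a chain of the specialised type IV network best known from kidney, read 0.886, 0.906, 0.724 and 0.954 FPKM and 1.20, 1.61, 1.49 and 1.84 FPKM (log2 fold change 0.75, SE 0.223, 95% interval 0.25 to 1.25, limma adjusted p = 0.0394, exact permutation p = 0.0286). Their groups did not overlap in these 2 genes either. Col9a1, a chain of type IX, read 1.67, 1.46, 2.08 and 1.34 FPKM and 1.75, 2.09, 2.64 and 3.26 FPKM, with overlap (log2 fold change 0.53, SE 0.232, 95% interval 0.00 to 1.05, limma adjusted p = 0.135, exact permutation p = 0.0571), and its call was lost without any of 6 libraries, all but Saline-SA replicate 1 and Saline-Saline replicate 3. The calls of Col25a1, Col11a2, Col20a1 and Col4a4 held without each library in turn, and that of Col20a1 was lost with quantile normalization or without the libraries labelled replicate 4. Col17a1, the other collagen without overlap, was not called (limma adjusted p = 0.25).

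Heroin-SA rats lay with Saline-SA rats for these genes. Col25a1 read 6.86, 10.2, 6.51 and 11.4 FPKM and Col11a2 56.5, 47.9, 57.5 and 53.3 FPKM in Heroin-SA. The difference from Saline-SA was 0.05 for Col25a1 (95% interval −0.41 to 0.51) and 0.09 for Col11a2 (95% interval −0.10 to 0.28). Marker levels moved with the experiment too. Mural markers summed to 118 ± 18.2 FPKM in Saline-SA and 75.8 ± 16.9 FPKM in Saline-Saline, with 7 of 10 tested markers called higher, and endothelial markers to 160 ± 16.6 and 132 ± 7.62 FPKM, with 3 of 10 called higher. Striatal medium spiny neuron markers were called higher for 6 of 9, and oligodendrocyte markers lower for 5 of 7. Oligodendrocyte precursor markers were called lower for 3 of 5 and summed to 213 to 245 FPKM in Saline-SA against 255 to 333 FPKM in Saline-Saline. Microglial markers were called lower for 2 of 6 and summed to 54.8 to 68.7 against 70.5 to 90.4 FPKM, and astrocyte markers were called lower for 2 of 6 and summed to 455 ± 69.8 against 598 ± 61.7 FPKM. With the meningeal or the cortical level as a covariate the calls of Col25a1, Col11a2, Col20a1 and Col4a4 held and that of Col9a1 was lost (0.54 and 0.45). The part of the other cell types in the collagen differences was not tested.

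**Figure D5:**
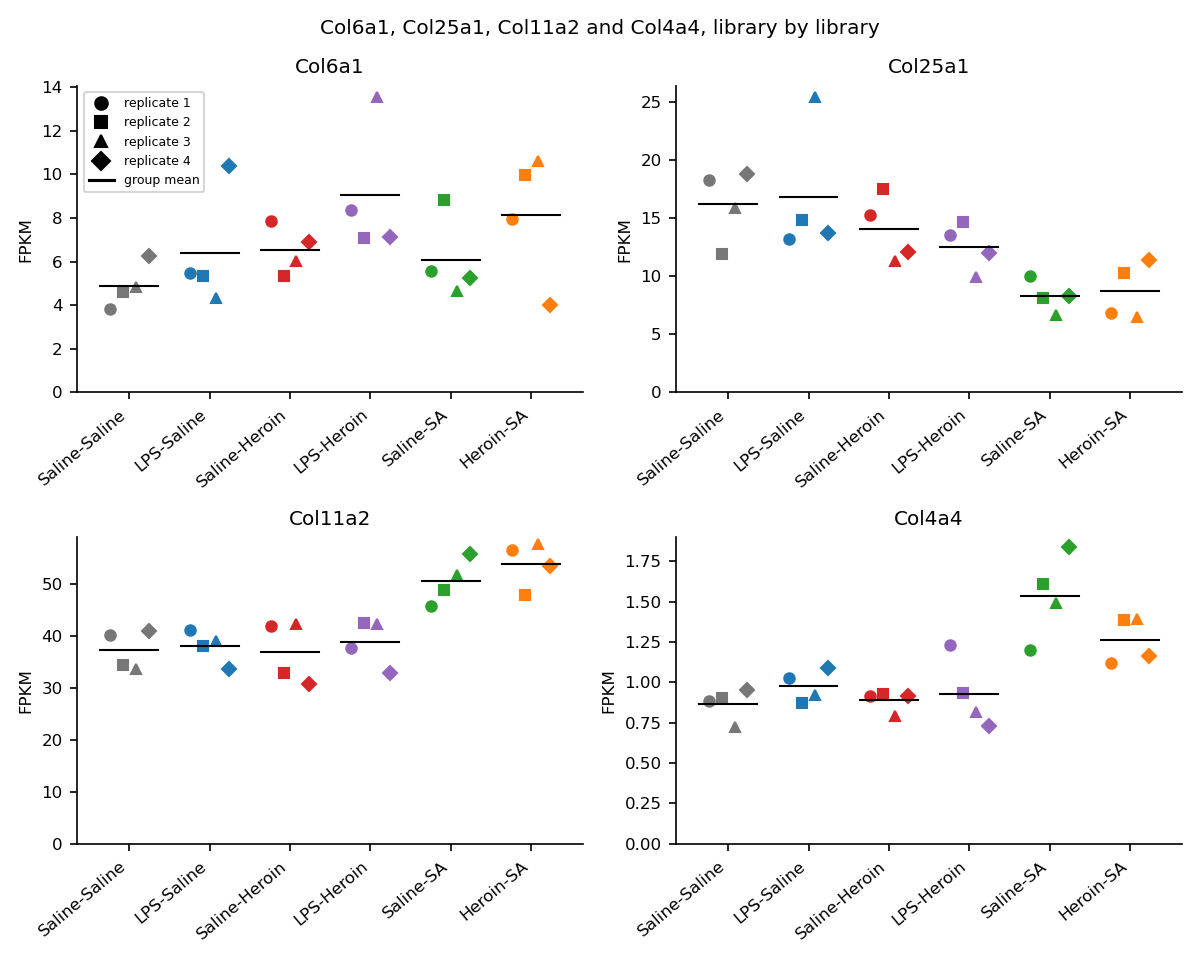
FPKM of Col6a1, Col25a1, Col11a2 and Col4a4 in every library, by group, on axes from 0, with a marker shape for each replicate number and a line at the group mean (n = 4). Col6a1 in LPS-Heroin lies above Saline-Saline in every library, and the SA libraries lie below the Saline-Saline libraries for Col25a1 and above them for Col11a2 and Col4a4.

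Genes that make, bind, receive and degrade collagen were followed in 5 lists of 79 genes, of which 59 to 63 were tested in a comparison. In LPS-Saline vs Saline-Saline none was upregulated and 1 downregulated, of 61 (2.37% of all genes called). Saline-Heroin vs Saline-Saline had 4 upregulated and none downregulated, of 62 (3.07% of all genes called, 1.40% higher). LPS-Heroin vs Saline-Saline had 4 and 2 of 62 (5.43%, and 2.99% higher), LPS-Heroin vs LPS-Saline none and 1 of 62 (2.29%) and LPS-Heroin vs Saline-Heroin 1 and 2 of 63 (2.20%). Heroin-SA vs Saline-SA had 1 and 3 of 59 (5.45%), and Saline-SA vs Saline-Saline had 2 and 3 of 61 (22.8%).

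In Saline-Heroin the genes upregulated were Fn1 (fibronectin), Bgn, Eln and Pcolce. Fn1 read 4.39, 3.57, 3.41 and 5.08 FPKM in Saline-Saline and 8.34, 6.95, 5.65 and 8.79 FPKM in Saline-Heroin (log2 fold change 0.84, SE 0.176, 95% interval 0.44 to 1.24, limma adjusted p = 0.750, exact permutation p = 0.0286). Bgn, the proteoglycan biglycan that binds fibrils, read 6.12, 6.83, 7.01 and 14.0 FPKM and 9.61, 15.9, 18.0 and 19.0 FPKM (log2 fold change 0.91, SE 0.293, 95% interval 0.24 to 1.57, limma adjusted p = 0.750, exact permutation p = 0.0571). Pcolce, which enhances cleavage of the procollagen C-propeptide, averaged 3.86 FPKM in Saline-Heroin against 2.13 FPKM in Saline-Saline (0.89 on the log2 scale), and Eln (elastin) averaged 4.42 against 2.38 FPKM (0.82). Meningeal markers summed to 124 FPKM in Saline-Heroin and 70.8 FPKM in Saline-Saline, and mural markers to 103 and 75.8 FPKM, with none of 13 and 2 of 11 called higher. All 13 meningeal markers tested had a log2 fold change above 0 (median 0.77), as did 7 of 11 mural markers (median 0.11). With the meningeal level as a covariate Fn1 (0.87) was called and Bgn (0.51), Pcolce (0.59) and Eln (0.56) were not. Results of these genes with the cortical level as a covariate are not given here. Fn1 and Bgn were called without each library in turn, Pcolce was lost without any library but Saline-Heroin replicate 1 and Saline-Saline replicate 4, and Eln was lost without Saline-Heroin replicate 1 or 2 or Saline-Saline replicate 1, 2 or 3.

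In LPS-Heroin vs Saline-Saline the largest fall was that of Timp4, an inhibitor of matrix metalloproteinases, which read 9.67, 8.62, 11.1 and 9.21 FPKM in Saline-Saline and 4.09, 3.16, 5.59 and 4.70 FPKM in LPS-Heroin (log2 fold change -1.14, SE 0.169, 95% interval -1.52 to -0.76, limma adjusted p = 0.144, exact permutation p = 0.0286). Timp4 was also lower in LPS-Saline (log2 fold change -0.56, SE 0.167, 95% interval -0.94 to -0.18, limma adjusted p = 0.679, exact permutation p = 0.0571). Sparc, a collagen-binding protein, read 446, 421, 410 and 332 FPKM in Saline-Saline and 185, 191, 272 and 270 FPKM in LPS-Heroin (log2 fold change -0.82, SE 0.152, 95% interval -1.17 to -0.48, limma adjusted p = 0.154, exact permutation p = 0.0286). For both genes every LPS-Heroin library lay below every Saline-Saline library. Of all genes, 3.70% were separated upward in this comparison, and the downward share is not given here. Among the genes upregulated were P4ha3, a subunit of prolyl 4-hydroxylase, Fn1 and Ctsk, the collagen-cleaving cathepsin K, with log2 fold changes of 1.00, 0.73 and 0.49. With the cortical level as a covariate Timp4 (−0.89) and Sparc (−0.69) were called, and P4ha3 (0.19), Fn1 (0.68) and Ctsk (0.24) were not. That level did not overlap between these groups, so the fit cannot tell it apart from the treatment. Timp4 and Sparc were called without each library in turn. P4ha3 was lost without LPS-Heroin replicate 2 (0.91), Fn1 without LPS-Heroin replicate 3 or 4 or Saline-Saline replicate 2 or 3 (0.49 to 0.96 over the libraries left out), and Ctsk without LPS-Heroin replicate 1 or 4 or Saline-Saline replicate 1 or 3 (0.31 to 0.59).

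In Heroin-SA vs Saline-SA, P4ha1, the main catalytic subunit of prolyl 4-hydroxylase that stabilises the triple helix, read 21.5, 19.4, 22.7 and 25.5 FPKM in Saline-SA and 31.2, 30.3, 29.2 and 40.7 FPKM in Heroin-SA (log2 fold change 0.55, SE 0.123, 95% interval 0.27 to 0.83, limma adjusted p = 0.264, exact permutation p = 0.0286). The call held without each library in turn and with both covariates. Loxl3 (−0.50), Tnxb (−0.70) and Sparc (−0.39) were downregulated, but Loxl3 was lost without any library but Saline-SA replicate 3, Tnxb without any but Heroin-SA replicate 1, and Sparc without Heroin-SA replicate 2 or 3 or Saline-SA replicate 3 or 4. In LPS-Heroin vs Saline-Heroin, Pcolce (−0.99) and Bgn (−0.97) were downregulated and P4ha3 (0.94) upregulated, and none was called with either covariate. P4ha3 was also lost without LPS-Heroin replicate 1, 2 or 3 or Saline-Heroin replicate 2 or 4. In Saline-SA vs Saline-Saline, Mia3 (−0.40), which exports procollagen from the endoplasmic reticulum, Colgalt2 (−0.92) and Lamb1 (−0.40) were downregulated, and Crtap (0.90) and the integrin chain Itga10 (1.42) upregulated. Colgalt2, Crtap and Itga10 were called without each library in turn, whereas Mia3 was lost without Saline-Saline replicate 1 or 4 and Lamb1 without replicate 2, 3 or 4 of either group.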

How the data were processed

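RNA-seq values of 24 NAc libraries were analysed, 4 per group by the labels (the methods of the study state 6 sequenced per group). Per the labels and the submitters' processing notes, libraries from polyadenylated RNA were strand-specific, reads were trimmed with fastp and aligned with HISAT2 to rn6, and genes were counted with featureCounts. Versions and the strand setting are not given in the sources used here. The authors deposited FPKM values, called RPKM in the methods. Divided by what 1 read is worth for its gene and library, 100% of values came within 0.01 of a whole read, so depth is known: 12312878 to 18850240 reads on genes per library.

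Comparisons used limma 3.58.1 (R 4.3.3, limma-trend) on log2(FPKM + 0.1), over genes with a mean of at least 0.5 FPKM in the libraries compared, with Benjamini-Hochberg adjustment over all of them. A gene was called at p of at most 0.05 and a fold of at least 1.30. Fold changes on this scale understate the change of low genes. Single members also had exact 2-sided permutation tests of mean FPKM. Relations with marker lists used deviations from group means of log2(FPKM + 0.1), with 100000 permutations within groups and adjustment over 384 relations; the smallest p this allows is 1e-05. Scripts were tested on simulated data. Named were collagens called in a comparison, the 3 most abundant of the fibrillar, type IV, type VI, FACIT, transmembrane and remaining classes, and the 3 with the widest spread in a group; of other genes, called genes of 5 collagen pathway lists (1 of them is not reported here) and leading markers. Members, lists and tests were chosen with earlier results of these data known. Alternatives were another pseudocount, no filter or a mean of at least 1 FPKM, quantile or median scaling, all libraries in a single fit, limma-voom with TMM factors on recovered reads, other call limits, the replicate number as a block, and each library left out. Alternatives added after the data were seen left out the libraries labelled replicate 4 or took the meningeal or the cortical marker level as a covariate.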

Additional observations from a re-analysis of the deposited data

Results flagged for a closer look

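In 192 sets of 4 libraries (32 collagens in 6 groups), 20 values lay apart from the other 3 of their group by Dixon's criterion, which chance meets in about 1 in 20 groups. LPS-Saline replicate 4 held 5 of them, all high: Col1a1 at 11.8 FPKM, Col1a2 at 10.8 FPKM, Col3a1 at 11.5 FPKM, Col6a2 at 6.08 FPKM and Col8a2 at 2.56 FPKM. Saline-Saline replicate 4 held 3 high values, Col1a1 at 8.93 FPKM, Col3a1 at 10.7 FPKM and Col6a2 at 4.96 FPKM. Saline-SA replicate 4 held 4 high values, Col1a1 at 4.46 FPKM, Col4a1 at 10.8 FPKM, Col9a2 at 9.15 FPKM and Col14a1 at 0.987 FPKM. Each of these 3 libraries had the highest summed meningeal markers of its group, 290, 144 and 103 FPKM. Each also had the highest summed mural markers of its group, 130, 100 and 140 FPKM. Red blood cell markers were highest of their group in LPS-Saline replicate 4 (298 FPKM) and Saline-SA replicate 4 (624 FPKM). LPS-Heroin replicate 4 had the highest meningeal sum of its group as well (141 FPKM), but held no such value.

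The others fell singly. They were Col25a1 high in LPS-Saline replicate 3 (25.4 FPKM), Col5a2 high in Heroin-SA replicate 3 (8.65 FPKM), Col18a1 high in Saline-Heroin replicate 2 (8.02 FPKM), Col3a1 high in Heroin-SA replicate 1 (1.89 FPKM), Col5a1 high in LPS-Heroin replicate 1 (3.88 FPKM) and Col20a1 high in Saline-SA replicate 3 (1.77 FPKM). Col11a1 was low in Saline-Saline replicate 2 (5.78 FPKM) and Col4a4 low in Saline-Heroin replicate 3 (0.792 FPKM). Causes were not tested.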

How the results depend on the processing

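The numbers of collagens called rest on few genes and moved with single choices; where no cause is given, the cause was not tested. With all 24 libraries in 1 fit, the calls were 0 for LPS-Saline and 0 for Saline-Heroin vs Saline-Saline, 1 for LPS-Heroin vs Saline-Saline, 0 for LPS-Heroin vs Saline-Heroin and 1 for Heroin-SA vs Saline-SA. Limma-voom gave 2 in LPS-Saline vs Saline-Saline and 2 in Heroin-SA vs Saline-SA, a pseudocount of 1 gave 1 in Saline-Heroin vs Saline-Saline, and no filter gave 1 in Heroin-SA vs Saline-SA and 1 in the interaction. An adjusted p below 0.05 left 0 in each comparison except 3 in Saline-SA vs Saline-Saline. The replicate number as a block gave 2 in LPS-Saline vs Saline-Saline and 4 in LPS-Heroin vs Saline-Saline. This block lost Col6a1 in Saline-Heroin and Col9a1 in Saline-SA vs Saline-Saline. Correlations of same-numbered libraries ran from −0.15 to 0.15. Samples correlating best with their own number were 6 of 8 for LPS-Saline and Saline-Saline and 5 of 8 for Saline-SA and Saline-Saline. In the other pairs of groups they were 0 to 4 of 8. Whether same-numbered libraries shared handling was not tested.

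Leaving out each library in turn gave 0 to 2 calls in LPS-Saline, 0 to 5 in Saline-Heroin and 1 to 4 in LPS-Heroin vs Saline-Saline, 0 to 3 in LPS-Heroin vs LPS-Saline, 0 to 4 in LPS-Heroin vs Saline-Heroin, 0 to 2 in Heroin-SA vs Saline-SA, 4 to 7 in Saline-SA vs Saline-Saline and 0 to 1 in the interaction. Among alternatives chosen after seeing the data, leaving out every library labelled replicate 4 gave, in the same order, 3, 8, 2, 2, 7, 2, 3 and 1 calls (2.88, 4.86, 5.94, 2.47, 4.18, 4.54, 20.7 and 3.49% of all genes called). The meningeal level as a covariate gave 1, 0, 2, 2, 1, 1, 4 and 0 (2.61, 2.62, 5.41, 2.52, 2.03, 5.54, 23.0 and 2.15%), and the cortical level 1, 1, 0, 0, 0, 0, 4 and 0 (2.94, 2.68, 3.30, 1.77, 2.18, 6.09, 21.9 and 2.38%). No collagen or other named value changed its sign and stayed called under the alternatives run.

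By Spearman's rho, collagens following a list numbered 1 for astrocytes (0 by Pearson's r), 2 for choroid plexus (1), 0 for cortical excitatory neurons (1), 0 for mural cells (1) and 1 for striatal medium spiny neurons (3), and with a pseudocount of 1 they numbered 0, 0 and 1 for the last 3 lists. The 6 collagens following the meningeal list numbered 6 under both. Low members are limited by depth: Col8a2 rested on 7 to 148 reads per library and the longer Col23a1 row on 5 to 59.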
